A study of Mus musculus with 6 samples.

Results

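The 8 genes described here carry out or control the burning of fatty acids: Ppara, Ppargc1a, Cpt1a, Cpt2, Acadm, Acadl, Ehhadh and Pdk4. They were taken by name from the annotation of a mouse kidney microarray, on which 36870 gene names are listed, and each of them was found there, with 11 of the 56605 probes between them. The kidneys came from 3 MRL mice and 3 LPR mice, all female and 6 months of age, with 1 mouse on each array. MRL is the strain MRL/MpJ, which served as control. LPR is MRL/MpJ-Fas lpr/lpr, the same background with the lpr mutation of Fas, and develops lupus nephritis. The comparison asks how the transcripts of the pathway differed between the kidneys of LPR and MRL mice. The samples were whole kidney, so fewer cells of a type and less RNA per cell cannot be told apart in any value below.

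Fatty acid oxidation is the main source of energy of the proximal tubule, the segment of the nephron that reabsorbs most of the filtered load. Long-chain fatty acids enter mitochondria through the carnitine shuttle and are shortened there by cycles that start with an acyl-CoA dehydrogenase, while peroxisomes shorten other chains. The nuclear receptor PPAR-alpha switches on many of these genes during fasting, together with the coactivator PGC-1-alpha, and ketogenesis in the liver draws on the same acetyl-CoA. None of the 8 genes encodes an enzyme of ketone body synthesis itself, so those enzymes are given below from a separate list.

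Ppara, Ppargc1a and Cpt2 were measured by a pair of probes each, and the start of each of these probes is shown because agreement between different target stretches bears on the values that follow. The first 30 of the 60 bases of each probe are written from 5′ to 3′ in lower case, with no base marked, and positions are on build mm9 as the array annotation gives them.
Ppara A_55_P2055854 (chr15:85632110-85632169, plus strand): ctttgaaaacctacaagtcaaggtgtggcc
Ppara A_55_P2071596 (chr15:85637193-85637252, plus strand): cctgtaagctgatgaatgtaaagagttaat
Ppargc1a A_51_P279038 (chr5:51848928-51848987, minus strand): ccccttcaaatggcagcatttccatgaaga
Ppargc1a A_55_P2745394 (chr5:51849419-51849478, minus strand): tatgactctctggattttgatagtttactg
Cpt2 A_51_P403388 (chr4:107576571-107576610, minus strand): actgcagctctaaagcccttcttaaggaga
Cpt2 A_55_P2074174 (chr4:107580325-107580384, minus strand): attgtgaatccctcagaaatccaggcacat
The starts of the listed intervals lie 5083 bases apart for Ppara, 491 for Ppargc1a and 3754 for Cpt2, so no pair reads the same stretch. The listed interval of the first Cpt2 probe covers 40 of its 60 bases. Single probes measured Cpt1a (A_51_P427674, chr19:3385374-3385433), Acadm (A_55_P2806049, chr3:153585469-153585528), Acadl (A_55_P2798972, chr1:66877452-66877511), Ehhadh (A_51_P462918, chr16:21761914-21761973) and Pdk4 (A_51_P350453, chr6:5433441-5433500). The exon of each position was not analysed here, because the gene models at hand are on another build.

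Each signal is given as log2 of the deposited intensity minus log2 of the 75th percentile of its array, so that 0 is the brightness of that percentile and 1 unit is a doubling. A log2 change is LPR minus MRL, with its standard error from limma, and a gene is called lower or higher when its Benjamini-Hochberg adjusted p over all tested probes is under 0.05. The brightest tested probe stands for a gene where genes are counted. Levels of different probes cannot be set against each other. Of the 56605 probes, 39916 stood well above background on 3 or more arrays and entered the test. The 75th percentile lay between 700 and 751 on 5 arrays and at 930 on LPR 1, which also had the largest share of spots above background (73.5%, against 69.6% to 70.9% on the other arrays). Arrays correlated at 0.992 to 0.993 within MRL, at 0.990 to 0.993 within LPR and at 0.961 to 0.971 between the groups. The 2 probes of Fas did not settle the genotype: one had a log2 change of -0.47 (adjusted p = 0.235 in limma) and the other cleared the background on 3 LPR arrays and 0 MRL arrays. The labels name no litter or cage, so the p-values measure the spread between these mice.

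All 11 probes of the 8 genes were well above background on all 6 arrays, and so none had to pass a filter through one group. Pdk4, Ppargc1a, Ppara and Cpt1a were lower in LPR mice, and Cpt2, Acadm, Acadl and Ehhadh did not pass the test. That makes 4 of 8 genes lower and 0 higher, where 5.39% of all 25799 genes tested were lower and 7.12% higher. The log2 change was negative for every one of the 11 probes, and its median over the 8 genes was -0.45, beside a median of -0.12 over all genes. At an unadjusted limma p under 0.05, 7 of the 8 genes were lower and 0 higher, where 18.7% of all genes were lower and 10.6% higher. In 7 of the 8 genes each LPR array lay below each MRL array, which held for 25.4% of all genes. Acadl was the exception. LPR 1 was the lowest of the LPR arrays for 7 of the 8 genes, the exception being Ppargc1a. It was also the array with the highest 75th percentile, and how many of all genes were lowest on it was not counted. Without LPR 1 the log2 changes were -1.40 for Pdk4, -1.08 for Ppargc1a, -0.80 for Ppara and -0.45 for Cpt1a.

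**Figure D1:**
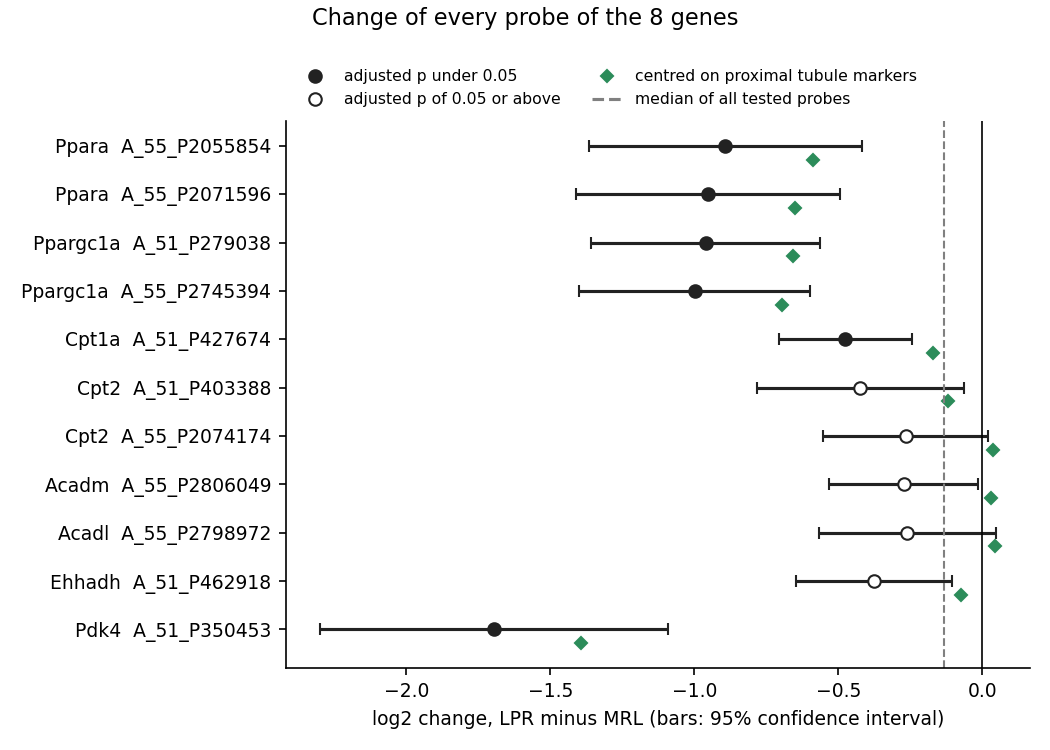
Log2 change from MRL to LPR kidney (horizontal axis) of each of the 11 probes of the 8 genes, with 95% confidence intervals from limma on 3 against 3 mice. Filled circles passed an adjusted p of 0.05, the dashed line is the median of all tested probes (-0.13), and green diamonds are the changes after centring each array on 13 proximal tubule markers. Pdk4 lies farthest to the left at -1.70, and the diamonds of Acadm, Acadl and the dimmer Cpt2 probe lie just above 0.

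**Figure D2:**
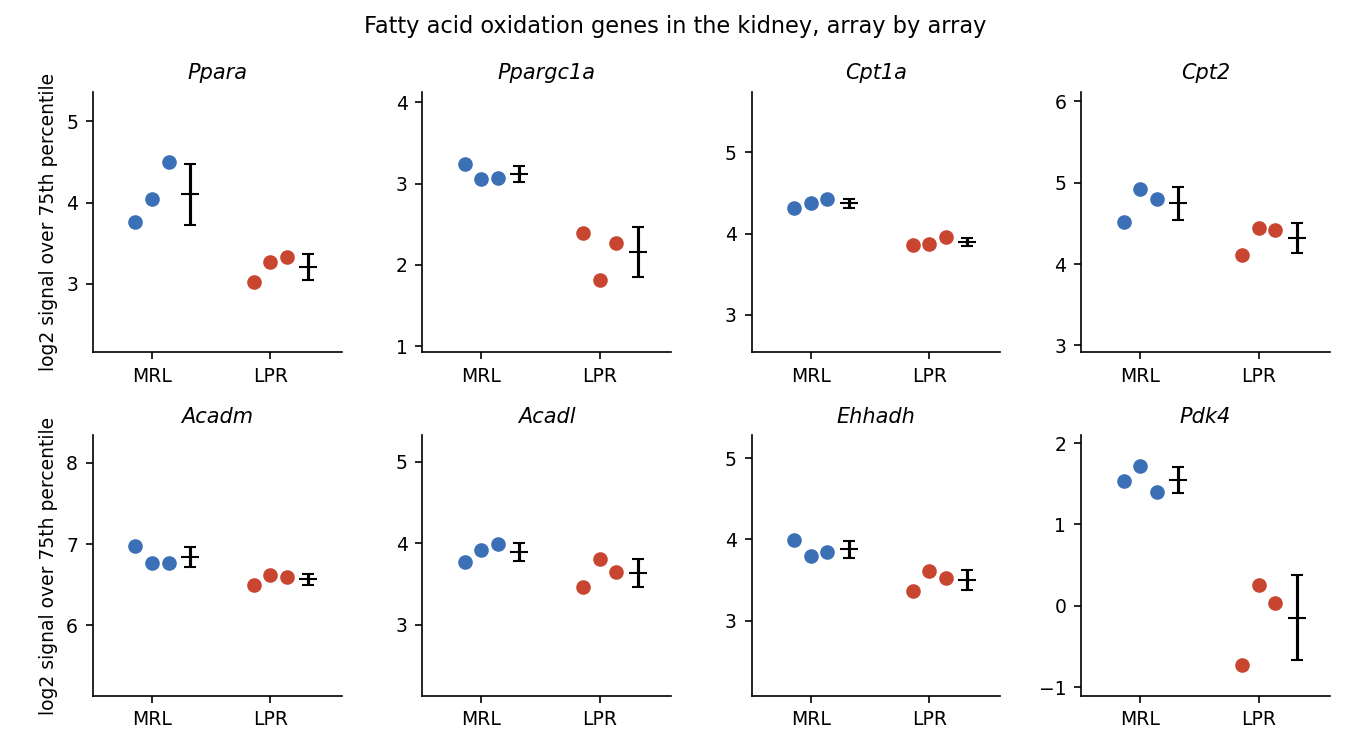
Log2 signal over the 75th percentile of the array (vertical axis, each panel spanning the same range) for the brightest probe of each of the 8 genes in 3 MRL (blue) and 3 LPR (red) kidneys, in the order of replicate number. Black bars are means with SD. The groups overlap only for Acadl, and Pdk4 shows the widest gap and the widest spread among LPR mice.

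Ppara encodes PPAR-alpha, the fatty acid-sensing nuclear receptor of the pathway. Its brighter probe read 3.76, 4.05 and 4.49 in MRL mice and 3.02, 3.27 and 3.33 in LPR mice. Every LPR mouse was below every MRL mouse, and the MRL mice were spread more widely than the LPR mice. The means were 4.10 ± 0.37 (SD, n = 3) and 3.21 ± 0.16 (SD, n = 3), a fall of 46.1%. The log2 change was -0.89 (standard error 0.20, limma adjusted p = 0.0322), and the dimmer probe changed by -0.95 (standard error 0.19, limma adjusted p = 0.0233). The size held while the call did not: without MRL 2, MRL 3, LPR 1, LPR 2 or LPR 3 the log2 change of the brighter probe was -0.92, -0.69, -0.80, -0.92 and -0.95, and limma adjusted p was 0.0776, 0.058, 0.0841, 0.0647 and 0.0706.

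Ppargc1a encodes PGC-1-alpha, a coactivator of mitochondrial biogenesis and oxidative metabolism. The brighter probe read 3.24, 3.05 and 3.07 in MRL mice and 2.40, 1.82 and 2.27 in LPR mice. LPR 2 was the lowest of all, and the groups lay apart by 0.66 log2 units. Group means were 3.12 ± 0.10 (SD, n = 3) for MRL and 2.16 ± 0.30 (SD, n = 3) for LPR, a fall of 48.6%. The log2 change was -0.96 (standard error 0.17, limma adjusted p = 0.0132). The dimmer probe read 1.31, 1.23 and 1.20 in MRL mice and 0.52, -0.11 and 0.33 in LPR mice, in the same order among the LPR mice, and its log2 change was -0.999 (standard error 0.17, limma adjusted p = 0.0116). Leaving out any single mouse kept this gene under the threshold, with adjusted p up to 0.0493.

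Carnitine palmitoyltransferases carry long-chain acyl groups into mitochondria, Cpt1a at the outer membrane, where the flux is controlled, and Cpt2 at the inner membrane. Cpt1a read 4.32, 4.37 and 4.43 in MRL mice and 3.86, 3.88 and 3.96 in LPR mice. Both groups were tight and did not overlap. The means of 4.37 ± 0.06 (SD, n = 3) and 3.90 ± 0.05 (SD, n = 3) gave a log2 change of -0.48 (standard error 0.10, limma adjusted p = 0.0237), which is a fall of 28.1%. The log2 change stayed between -0.51 and -0.45 with any mouse left out, but the adjusted p was 0.0556, 0.087 and 0.0888 without MRL 1, MRL 2 and MRL 3 and 0.0594 and 0.0645 without LPR 1 and LPR 3. Cpt2 read 4.52, 4.92 and 4.80 in MRL mice and 4.11, 4.44 and 4.42 in LPR mice by its brighter probe. The groups did not overlap, with 0.08 log2 units between the nearest mice, and the log2 change of -0.42 (standard error 0.15, limma adjusted p = 0.118) did not pass. Its 95% interval of -0.78 to -0.06 includes the change of Cpt1a. The dimmer Cpt2 probe had a log2 change of -0.27 (standard error 0.12, limma adjusted p = 0.193).

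The acyl-CoA dehydrogenases take the first step of each cycle in mitochondria, Acadm on medium and Acadl on long chains, and Ehhadh is the bifunctional enzyme of the peroxisome. Acadm read 6.98, 6.77 and 6.77 in MRL mice and 6.49, 6.62 and 6.59 in LPR mice, a log2 change of -0.27 (standard error 0.11, limma adjusted p = 0.15). Acadl read 3.77, 3.92 and 3.99 in MRL mice and 3.46, 3.81 and 3.64 in LPR mice, a log2 change of -0.26 (standard error 0.13, limma adjusted p = 0.227). The LPR mice lay below the MRL mice for Acadm, whereas LPR 2 lay above MRL 1 for Acadl. Ehhadh read 3.99, 3.80 and 3.84 in MRL mice and 3.36, 3.61 and 3.53 in LPR mice, with no overlap and a log2 change of -0.38 (standard error 0.11, limma adjusted p = 0.0789). None of these 3 enzymes passed the test, and their 95% intervals reached down to -0.53, -0.57 and -0.65.

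Pdk4, the kinase that shuts pyruvate dehydrogenase when fatty acids are burned, changed most of the 8 genes. It read 1.53, 1.72 and 1.40 in MRL mice and -0.73, 0.26 and 0.03 in LPR mice. The LPR mice all lay at least 1.14 log2 units below the MRL mice, and LPR 1 was the lowest. With means of 1.55 ± 0.16 (SD, n = 3) for MRL and -0.15 ± 0.52 (SD, n = 3) for LPR, it was 3.24-fold lower in LPR mice. The log2 change was -1.70 (standard error 0.26, limma adjusted p = 0.00701). It was -1.40 without LPR 1 and -1.90 without LPR 2, and stayed under the threshold with any single mouse left out, at adjusted p up to 0.0279.

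The arrays lay in 2 rows of 1 slide, with the 3 MRL arrays and LPR 1 in row 1 and LPR 2 and LPR 3 in row 2. With the row in the fit, which sets LPR 1 against the MRL arrays, the log2 changes were -2.28 for Pdk4, -0.72 for Ppargc1a, -1.08 for Ppara and -0.52 for Cpt1a, and only Pdk4 passed (adjusted p = 0.00335, against 0.136, 0.111 and 0.11). With the slide column in the fit, Pdk4 (-1.48, adjusted p = 0.00534) and Ppargc1a (-1.10, adjusted p = 0.0298) passed, whereas Ppara (-0.60, adjusted p = 0.124) and Cpt1a (-0.43, adjusted p = 0.239) did not. Columns 1 and 2 held an array of each group.

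The promoters of the members were read because PPAR-alpha binds, with its partner RXR, a direct repeat of the half-site AGGTCA spaced by 1 base. RefSeq windows on build GRCm38.p6, from 250 bases before to 50 after the start of each gene, were found for all 8 genes, and both strands were searched. The half-site stood in the windows of Cpt1a and Acadm, 2 of 8, as it did in 16.3% of all 32851 windows. The direct repeat was in none of the 8 windows and in 0.0396% of all windows, and with any base allowed at the fourth place of each half-site it was in none of the 8 and in 0.381% of all. The 250 bases before the start are shown for both genes with a match and for Pdk4, the gene with the largest change, which has none. Capitals mark the half-site, read here on the opposite strand.
Cpt1a (chr19:3323051-3323300, plus strand): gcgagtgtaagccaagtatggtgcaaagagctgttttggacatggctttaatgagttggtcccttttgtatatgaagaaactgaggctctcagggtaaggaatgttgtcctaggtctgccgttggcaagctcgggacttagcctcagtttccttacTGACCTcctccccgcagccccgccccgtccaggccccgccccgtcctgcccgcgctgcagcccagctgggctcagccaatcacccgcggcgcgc
Acadm (chr3:153944644-153944893, minus strand): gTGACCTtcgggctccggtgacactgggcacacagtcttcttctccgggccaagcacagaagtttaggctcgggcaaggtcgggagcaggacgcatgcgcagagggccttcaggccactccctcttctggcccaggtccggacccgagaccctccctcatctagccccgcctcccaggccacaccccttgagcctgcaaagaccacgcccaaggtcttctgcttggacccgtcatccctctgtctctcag
Pdk4 (chr6:5496279-5496528, minus strand): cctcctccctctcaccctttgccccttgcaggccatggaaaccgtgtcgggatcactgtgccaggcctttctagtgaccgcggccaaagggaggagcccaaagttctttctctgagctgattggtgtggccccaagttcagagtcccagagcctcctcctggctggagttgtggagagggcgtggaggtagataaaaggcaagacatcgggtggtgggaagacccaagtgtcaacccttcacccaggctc
The match begins 94 bases before the start in Cpt1a, which was lower in LPR mice, and 249 bases before it in Acadm, which did not pass. The windows are short, and a search of these letters says nothing of binding elsewhere.

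Around the 8 genes, 9 lists of related genes held 126 others, of which 122 were tested. In LPR mice 16 of the 122 were lower (13.1%) and 5 were higher (4.1%), beside 5.39% and 7.12% of all genes. The median log2 change was -0.30, beside -0.12 over all genes, and 96 of the 122 had a negative change. Each LPR mouse lay below each MRL mouse for 54 of the 122 genes (44.3%), beside 25.4% of all genes. The number of lower genes did not hold with 1 mouse left out and ranged from 3 to 15. It was 4, 3 and 6 without MRL 1, MRL 2 and MRL 3 and 6 and 3 without LPR 1 and LPR 3. Fits with 1 mouse fewer also called fewer of all genes lower, 482 to 1343 instead of 1390. The genes named below are those with the largest changes among the ones that passed, with Hadha and Cpt1b in any case. Where a list had 1 more gene that passed it is named because of the small count. Acadsb, Echs1, Acad9, Eci2, Esrrg and Cpt1c are named for dimmer probes that passed, which do not enter the counts.

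**Figure D3:**
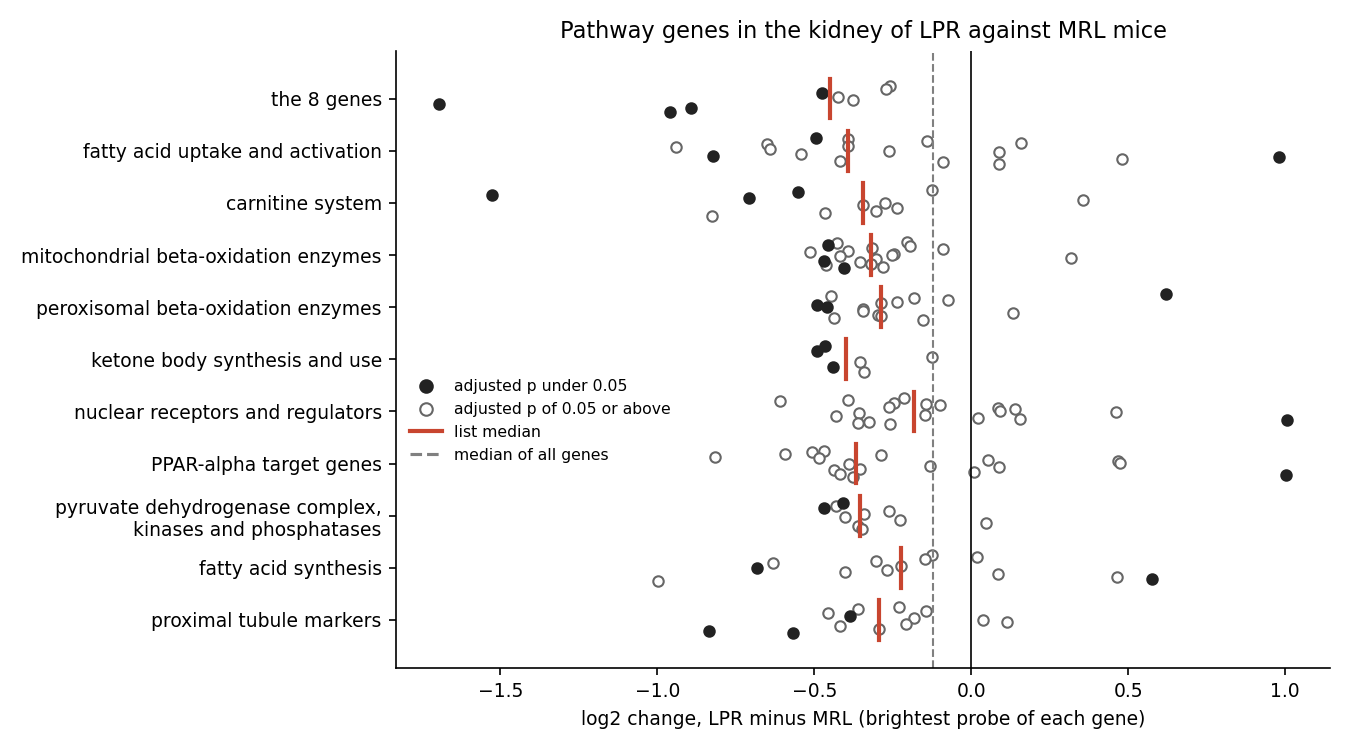
Log2 change from MRL to LPR kidney (horizontal axis) of the brightest probe of each gene in the 8 genes, the 9 pathway lists and the proximal tubule markers, with 1 circle for each gene. Filled circles passed an adjusted p of 0.05, red bars are list medians, and the dashed line is the median over all genes (-0.12). List medians range from -0.18 for the nuclear receptors and regulators to -0.40 for the ketone body list, with Bbox1 farthest left in the carnitine list and Fabp5, Rxrg and Ucp3 farthest right.

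In the list of fatty acid uptake and activation, 2 of 17 tested genes were lower and 1 was higher, with a median of -0.39. Fabp4, a fatty acid-binding protein of adipocytes, endothelium and macrophages, was lower (log2 change -0.82, standard error 0.14, limma adjusted p = 0.0124), as was Acsl1, a long-chain acyl-CoA synthetase (-0.49, limma adjusted p = 0.047), though Acsl1 did not pass with any mouse but LPR 2 left out, nor Fabp4 without LPR 3. Fabp5, a binding protein of epidermal and immune cells, was higher. It read 1.95, 2.07 and 2.11 in MRL mice and 3.15, 3.07 and 2.85 in LPR mice, with no overlap (log2 change 0.98, standard error 0.12, limma adjusted p = 0.00264).

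In the carnitine list 3 of 11 genes were lower, 0 were higher (6 and 1 at an unadjusted limma p under 0.05, beside 18.7% and 10.6% of all genes), and the median was -0.35. Without MRL 1, LPR 1 or LPR 2 the lower genes numbered 2, and without MRL 2, MRL 3 or LPR 3 only 1. Bbox1, which makes carnitine from its precursor, read -2.52, -2.37 and -1.63 in MRL mice and -3.26, -3.98 and -3.87 in LPR mice. Its groups did not overlap, and its log2 change of -1.53 (standard error 0.28, limma adjusted p = 0.0166) was the largest fall among the genes of these lists that passed. Cpt1b, the muscle form of carnitine palmitoyltransferase 1, read 0.25, 0.20 and 0.43 in MRL mice and -0.67, -0.12 and -0.46 in LPR mice (log2 change -0.71, standard error 0.16, limma adjusted p = 0.0347). Acacb, the carboxylase that makes the malonyl-CoA by which Cpt1a is inhibited, was lower by its brightest probe (-0.55, limma adjusted p = 0.0152) but not by its other 2 probes (-0.26 and -0.19, limma adjusted p = 0.185 and 0.299). Neither Acacb nor Cpt1b passed without MRL 1, so the 2 genes lower there include a gene not called with all mice. Cpt1c was not called by its brightest probe (0.36, limma adjusted p = 0.071), whereas its dimmer probe was higher (0.67, limma adjusted p = 0.0477).

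Of the 19 mitochondrial beta-oxidation enzymes, 3 were lower and 0 higher, and at an unadjusted limma p under 0.05 the counts were 11 and 0, beside 18.7% and 10.6% of all genes. With a mouse left out 0 of the 19 passed, except without LPR 2, where 3 did. The median was -0.32, and the change was negative in 18. Etfa, which passes electrons on from the dehydrogenases, was lower (-0.47, standard error 0.10, limma adjusted p = 0.0249), together with Acad11 (-0.46, limma adjusted p = 0.0429) and Hadhb, the beta subunit of the trifunctional protein (-0.41, limma adjusted p = 0.0467). The other 2 probes of Hadhb did not pass (-0.08 and -0.24, limma adjusted p = 0.719 and 0.196). Hadhb did not pass with any mouse left out, so the 3 genes without LPR 2 include a gene not called with all mice. Hadha, the alpha subunit, had a log2 change of -0.28 and did not pass (limma adjusted p = 0.191). Genes not called by their brightest probe had dimmer probes that passed: Acadsb (-0.70), Echs1 (-0.68), Acad9 (-0.60 and -0.59) and Eci2 (-0.43). In that order limma adjusted p was 0.00429, 0.00978, 0.0261, 0.0281 and 0.0379. The brightest probes of these genes changed by -0.51, -0.42, -0.09 and -0.30, and other dimmer probes of Acadsb, Acad9 and Eci2 did not pass. Of the 15 peroxisomal enzymes tested, 2 were lower and 1 was higher, with a median of -0.29. Acox2 (-0.49, limma adjusted p = 0.0443) and Acox3 (-0.46, limma adjusted p = 0.031), oxidases of branched chains, were lower. The lower genes numbered 1 without LPR 2 and 0 without any other single mouse.

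Ketone body metabolism was covered by 6 genes, of which 3 were lower and 0 higher, with a median of -0.40, and at an unadjusted limma p under 0.05 the counts were the same. The 3 calls did not all hold with any mouse left out: 1 was left without LPR 1 or LPR 2, and 0 without MRL 1, MRL 2, MRL 3 or LPR 3. Bdh1, which interconverts both ketone bodies, read 4.29, 4.18 and 4.15 in MRL mice and 3.73, 3.69 and 3.72 in LPR mice. The LPR mice were close together and below all MRL mice (log2 change -0.49, standard error 0.10, limma adjusted p = 0.0209), and a second probe of the gene changed by -0.53. Acat1 (-0.46, limma adjusted p = 0.0488) and Oxct1, the enzyme that lets tissues burn ketone bodies (-0.44, limma adjusted p = 0.0335), were lower too. With 1 mouse left out, log2 changes ranged from -0.52 to -0.45 for Bdh1, -0.52 to -0.38 for Acat1 and -0.48 to -0.40 for Oxct1.

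The 20 other receptors and regulators had a median of -0.18, with 0 lower by the brightest probe. Esrrg was not called by that probe (-0.61, limma adjusted p = 0.0716), whereas both dimmer probes were lower (-0.68 and -0.68, limma adjusted p = 0.0263 and 0.0426). Rxrg, a partner receptor of the PPARs, was the 1 gene called higher, at -2.35, -1.95 and -2.13 in MRL mice and -0.81, -1.28 and -1.31 in LPR mice (log2 change 1.01, standard error 0.18, limma adjusted p = 0.0135). Of 18 tested PPAR-alpha target genes 0 were lower and 1 was higher, and their median was -0.37. The gene that rose was Ucp3, an uncoupling protein of muscle mitochondria, at 0.42, 0.58 and 0.52 in MRL mice and 1.38, 1.71 and 1.43 in LPR mice (log2 change 1.00, standard error 0.12, limma adjusted p = 0.00293). Rxrg and Ucp3 showed no overlap between the groups. At an unadjusted limma p under 0.05, 4 of 20 regulators and 4 of 18 targets were lower, shares close to the 18.7% of all genes, and 2 regulators and 1 target were higher. The list of targets overlaps other lists, for example in Fabp1, Slc27a2 and Pex11a.

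The pyruvate dehydrogenase list, the complex on which Pdk4 acts with its other kinases and phosphatases, had 2 of 10 genes lower and 0 higher, or 8 and 0 at an unadjusted limma p under 0.05 (beside 18.7% and 10.6% of all genes), with a median of -0.35. Both genes that fell encode subunits of the complex itself, Pdha1 (-0.47, limma adjusted p = 0.0315) and Dlat (-0.41, limma adjusted p = 0.0378). Pdha1 did not pass with any mouse left out, and Dlat passed only without LPR 2. Without LPR 1 the only gene of the list that passed was neither of these. Without MRL 1, MRL 2, MRL 3 or LPR 3, 0 passed. The 13 genes of fatty acid synthesis had 1 lower and 1 higher, with a median of -0.22. Gpam, the first enzyme of glycerolipid synthesis, was lower (-0.68, standard error 0.10, limma adjusted p = 0.00707), and Srebf1, the lipogenic transcription factor, was higher (0.58, standard error 0.13, limma adjusted p = 0.0315) but did not pass with any mouse but LPR 2 left out.

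Proximal tubule cells are those in which the pathway is most active. Of 13 proximal tubule markers 3 were lower and 0 higher (7 and 0 at an unadjusted limma p under 0.05, beside 18.7% and 10.6% of all genes), with a median of -0.29: Slc5a12 (-0.84, limma adjusted p = 0.0086), Slc5a2 (-0.57, limma adjusted p = 0.0271) and Lrp2, the megalin gene (-0.39, limma adjusted p = 0.0497). Cubn (-0.36, limma adjusted p = 0.07) and Slc34a1 (-0.29, limma adjusted p = 0.22) did not pass. The lower markers numbered 2 without MRL 1 or LPR 2 and 1 without MRL 2, MRL 3, LPR 1 or LPR 3. The summed signal of the 13 markers, in units of the 75th percentile, was 1648 to 1693 in MRL mice and 1280 to 1418 in LPR mice, lowest in LPR 1. When each array was centred on these 13 markers, the median over all probes moved from -0.13 to 0.17. The markers include Slc27a2 and Hnf4a, which also belong to the pathway lists, so that scale is not independent of those lists. On that scale the log2 change was -1.39 for Pdk4 (adjusted p = 0.0101), -0.66 for Ppargc1a (adjusted p = 0.0746), -0.59 for Ppara (adjusted p = 0.0875) and -0.17 for Cpt1a (adjusted p = 0.265), so that 1 of the 8 genes was lower. Acadm and Acadl turned to 0.03 and 0.04, and Cpt2 and Ehhadh were at -0.12 and -0.07. Of the 122 genes of the pathway lists 2 were lower and 13 higher on that scale, beside 247 lower and 3920 higher of all 25799 genes.

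Other segments of the nephron were measured by smaller lists. Among 6 markers of the thick ascending limb and distal tubule 1 was lower, Calb1 (-1.19, limma adjusted p = 0.0353), and 0 higher, with a median of -0.60. Among 5 collecting duct markers 1 was lower, Atp6v1g3 (-0.62, limma adjusted p = 0.03), and among 4 endothelial markers 1 was lower, Kdr (-0.57, limma adjusted p = 0.0327). None of 4 podocyte markers passed in limma, 1 being higher at an unadjusted p under 0.05, and the median was 0.18. Calb1 did not pass without MRL 1, MRL 2, MRL 3 or LPR 3, Atp6v1g3 without MRL 2, MRL 3, LPR 2 or LPR 3, and Kdr with any mouse but LPR 2 left out. Of 5 markers of tubular injury 2 were higher, Lcn2 (2.14) and Vcam1 (2.28), and at an unadjusted limma p under 0.05 another was lower, with a log2 change of -0.71. Summed over the list, the injury markers were at 3.09 to 3.77 in MRL mice and 7.94 to 12.7 in LPR mice, without overlap.

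Most leukocyte markers rose. Of T cells 5 of 6 were higher, led by Cd3g (4.15) and Cd3d (4.14) and followed by Lck, Cd3e and Cd4. The remaining T cell marker was nearly unchanged (0.03). Of B cells 3 of 4 were higher, among them Cd79b (2.83) and Cd79a (1.88). The remaining B cell marker went the other way (-0.70), lower at an unadjusted limma p under 0.05 but not called. Of macrophages 5 of 5 were higher, led by C1qa (3.43) and Lyz2 (3.15) and followed by Cd68, Adgre1 and Csf1r. With a mouse left out, 4 T cell markers, 3 B cell markers and 3 to 4 macrophage markers were higher. Cd4 did not pass with any mouse left out, Adgre1 passed only without MRL 3, and Csf1r only without MRL 1. The summed signal of the macrophage list was 22.5 to 30.1 in MRL mice and 112 to 125 in LPR mice. That of the T cell list was 2.77 to 3.19 and 11.7 to 13.7, and that of the B cell list 0.61 to 0.82 and 3.51 to 4.73. The part of these cells in the changes of the 8 genes was not tested.

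Adipocyte markers were measured because Pdk4, Ppargc1a, Fabp4 and Cpt1b are also used by fat cells, which lie next to the kidney. Of 5 markers 1 was lower, Ucp1 of brown fat (-4.29, standard error 0.97, limma adjusted p = 0.0333), which cleared the background in all 3 MRL mice and in 1 of the 3 LPR mice, and 0 were higher. The size of that fitted change rests on 2 LPR signals at background, and the call was lost with any mouse but LPR 1 left out. The summed signal of the list was 4.20, 6.32 and 6.22 in MRL mice and 3.07, 3.02 and 0.56 in LPR mice. LPR 3 stood far below the other mice, with Adipoq (0.47, 1.02 and 0.81 in MRL mice) at 0.12, -0.03 and -3.06 in LPR mice. Each LPR mouse lay below each MRL mouse for all 5 markers, beside 25.4% of all genes. Without LPR 3 the log2 changes of the 4 called genes were -1.79 for Pdk4, -1.01 for Ppargc1a, -0.95 for Ppara and -0.51 for Cpt1a. LPR 1 and LPR 2, which remain in that fit, also lay below the MRL mice in these markers. The part of fat tissue in the results was not tested.

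**Figure D4:**
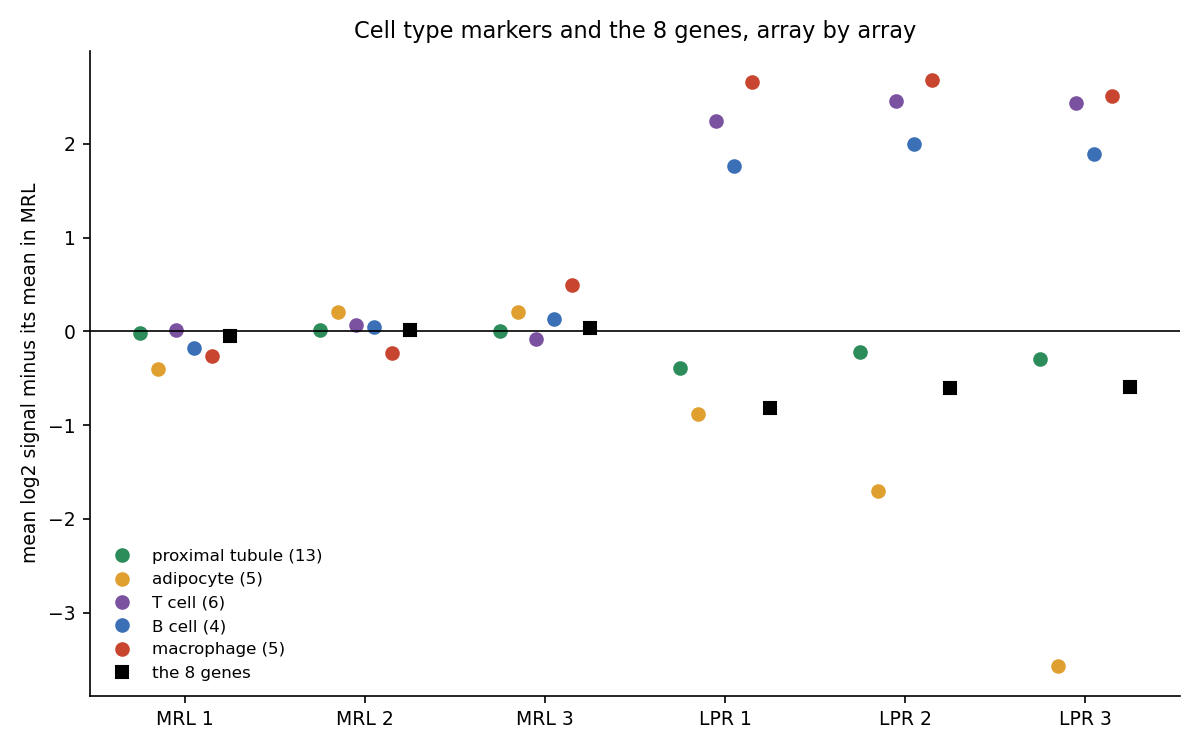
Mean log2 signal of each marker list and of the 8 genes on each of the 6 arrays, minus the mean of the 3 MRL arrays (vertical axis), with the number of markers in brackets. T cell, B cell and macrophage markers lie high on all LPR arrays, the proximal tubule markers and the 8 genes lie below 0 on all LPR arrays, and the adipocyte markers differ widely among LPR mice and are lowest in LPR 3.

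The genes whose pattern over the 6 arrays was most like that of each called gene were sought among 23309 genes above background on all arrays, by the root mean square difference of log2 values centred on the MRL mean. Nearest to Cpt1a were Etfa (0.03) and Phykpl (0.03), and nearest to Ppargc1a were Casc4, now named Golm2 (0.04), and Sox5 (0.07). Ppara was followed less closely by Ncs1 (0.11) and the transcript AK164765 (0.12), and Pdk4 by Asb11 (0.21) and Ren1, the renin gene (0.22). Their log2 changes were -0.47 and -0.44, -1.01 and -0.98, -0.77 and -0.80, and -1.72 and -1.63, in the same order. Etfa thus stood beside Cpt1a in pattern and belongs to the mitochondrial list above.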

How the data were processed

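Kidney RNA of 3 MRL and 3 LPR mice was measured on 6 single-colour Agilent arrays, all on 1 slide. The authors deposited intensities from Agilent Feature Extraction 12.0.3.1, corrected for background but not normalized across the arrays, and a table of these values divided by a constant for each array, which served as an alternative. The paper names TRIzol for the RNA, whereas the labels name the RNeasy Mini Kit.

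Control spots and outlier spots (73 to 90 per array) were left out, log2 intensities were centred on the 75th percentile of each array, and spots of 1 probe were averaged. A further 8 probes without a value on every array were left out. The test was limma 3.58.1 (R 4.3.3) on all 6 arrays, without a covariate. An exact test of 3 against 3 mice cannot go below 0.1. The 8 genes and all lists were chosen with earlier results of these data known. The genes named are the 8, Hadha, Cpt1b, Lrp2, Cubn and Slc34a1, the 2 largest rises and the 2 largest falls that passed in each list, and the 2 genes most like each called gene. Hadhb, Acacb, Oxct1, Adipoq, Lck, Cd3e, Cd4, Cd79a, Cd68, Adgre1 and Csf1r were named after their values were seen. So were Acadsb, Echs1, Acad9, Eci2, Esrrg and Cpt1c. A few genes of the lists enter the counts and medians but are not reported here by name. Simulated data for this comparison held 39916 probes, of which 200 were changed. In them limma recovered 48 of 100 probes changed 2-fold and 87 of 100 changed 4-fold, with 3 false calls. A larger share of genes was called in the real data, so this recovery need not hold there. No spot was saturated, and the number of arrays limits the precision.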

Additional observations from a re-analysis of the deposited data

How the results depend on the processing

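Under 22 alternatives the log2 changes of Pdk4, Ppargc1a, Ppara and Cpt1a stayed negative, and they passed in 21, 19, 12 and 12 of them. The number of lower genes among the 8 was 4 as reported, and under no alternative was any of the 8 called higher in LPR mice. It was 6 under normexp, where Cpt2 (-0.40) and Ehhadh (-0.38) passed, and quantile normalization added Cpt2 (-0.45). The intensity trend added Ehhadh (-0.38), and the methods' t-test without adjustment Ehhadh (-0.38) and Acadm (-0.27). It was 2 without a filter on dim probes, where Ppara (-0.89) and Cpt1a (-0.48) did not pass, and 1 in the methods' t-test after Benjamini-Hochberg, where Ppara (-0.89), Ppargc1a (-0.96) and Pdk4 (-1.70) did not. It was 1 with the slide row (Ppara -1.08, Ppargc1a -0.72 and Cpt1a -0.52 did not pass) and 2 with the slide column (Ppara -0.60 and Cpt1a -0.43 did not pass). Centred on proximal tubule markers it was 1 (Ppara -0.59, Ppargc1a -0.66, Cpt1a -0.17 did not pass), and Acadm (0.030), Acadl (0.043), the dimmer Cpt2 probe (0.038), Hadha (0.021) and Slc34a1 (0.0085) turned positive. The replicate block left 3 lower, without Cpt1a (-0.48). The labels do not say that mice with the same replicate number belong together. Deviations of such mice correlated at 0.115, 0.0203 and 0.0052, which cannot show whether they shared a litter or batch. With 1 mouse left out 2 to 3 were lower, with log2 changes of -1.06 to -0.69 for Ppara and -0.51 to -0.45 for Cpt1a.

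Of the 122 pathway genes, 16 were lower and 5 higher as reported. The lower genes numbered 43 under normexp, 39 with the intensity trend, 9 after a median shift, 5 without the filter, 4 with the slide column, 1 with the slide row, 1 with the replicate block, 2 on the tubule scale, 9 in the methods' t-test after Benjamini-Hochberg, 46 in it without adjustment and 3 to 15 with 1 mouse left out. The higher genes numbered 13 on the tubule scale, 9 in the t-test without adjustment, 3 without the filter, 2 with the slide row, the slide column, the replicate block or the adjusted t-test, and 3 to 5 with 1 mouse left out. Over all genes, 1390 were lower and 1838 higher, 43.1% of the calls being lower. That share was 58.1% under normexp and 5.93% on the tubule scale. Lower genes numbered 2640 under normexp, 247 on the tubule scale, 645 without the filter, 320 with the slide row, 632 with the slide column, 653 with the replicate block, 783 and 4259 in the t-test with and without adjustment and 482 to 1343 with 1 mouse left out. Higher genes numbered 3920 on the tubule scale and 1067 with the slide row. The causes of these shifts were not tested.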
